A study of Mus musculus with 2 samples.

Results

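The 6 hairpin genes of the miR-99/100 and miR-125 microRNA families, Mir99a, Mir99b, Mir100, Mir125a, Mir125b-1 and Mir125b-2, were measured in hindbrain of mouse embryos. Members were taken by gene symbol, and all 6 were found among the 1973 microRNA (miRNA) genes counted. The tissue came from B6NCrl embryos at embryonic day 12.5, males and females together, and small RNA under a length of 30 was sequenced. There is 1 group with 2 libraries, replicate 1 made from 120 pooled embryos and replicate 2 from 88, and no treatment or mutant genotype is labelled. The labels call them biological replicates but give both the same donor, and the spread given below is only that between these libraries.

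miRNAs are cut from hairpin precursors, and 1 arm of the hairpin usually guides repression of messenger RNAs through its seed, bases 2 to 8 from the 5′ end. miR-125 is the vertebrate counterpart of lin-4, the founding miRNA of worm developmental timing, and miR-99/100 belongs to the ancient miR-10 superfamily. In mammals both families lie side by side with a let-7 gene in paralogous loci, and both are known from the nervous system, where miR-125b promotes neuronal differentiation.

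The mature 5p arms, from RefSeq on GRCm38.p6 with entries for all 6 members, are shown because their likeness bears on how reads are placed and counted. The seed is in capitals and sequences run 5′ to 3′.
miR-99a-5p: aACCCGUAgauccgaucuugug
miR-100-5p: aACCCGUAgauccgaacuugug
miR-99b-5p: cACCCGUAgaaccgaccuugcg
miR-125a-5p: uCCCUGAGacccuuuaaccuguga
miR-125b-5p: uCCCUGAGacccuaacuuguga

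The 3 members of the miR-99/100 family share the seed ACCCGUA, and the 3 of the miR-125 family share CCCUGAG. Counted from 1 at the 5′ end, with the base of the first-named miRNA first, miR-99a-5p and miR-100-5p differ at 1 of 22 positions, U16A, and share their first 15 bases. miR-99a-5p and miR-99b-5p differ at 4 positions (A1C, U11A, U16C and U21C), which all lie outside the seed. miR-125a-5p and miR-125b-5p share their first 13 bases, and 15 of the 22 positions compared are the same. miR-125b-5p is given by both Mir125b-1 and Mir125b-2, which are therefore called multi-copy. The 5p arms of the other members each stand in 1 of the 2202 miRNA hairpins of GENCODE M21, and these members are called single-copy.

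The 3p arms of the miR-125b hairpins are shown because they tell the copies apart.
miR-125b-1-3p: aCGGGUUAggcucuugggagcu
miR-125b-2-3p: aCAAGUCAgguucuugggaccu
They are the same at 17 of 22 positions, and each stands in 1 hairpin. The tables sum both arms of a hairpin and hold only reads placed at a single position, so a full miR-125b-5p read, which matches both hairpins, is in neither count. Levels of the miR-125b members are therefore no measure of total miR-125b.

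The families lie in 3 loci, each with a miR-99/100 hairpin first, a let-7 hairpin in the middle and a miR-125 hairpin last, all on the plus strand. On mm10 (GRCm38, GENCODE M21), Mir99a (ENSMUSG00000065530.1) is at chr16:77598936-77599000 and Mir125b-2 (ENSMUSG00000065472.1) at chr16:77646273-77646343, each in an intron of all 4 transcripts of the noncoding host gene Mir99ahg that span it. The last bases of Mir125b-2 also overlap an exon of C130023A14Rik, which starts at 77646340 on the same strand. Mir100 (ENSMUSG00000093011.1) is at chr9:41531425-41531504 and Mir125b-1 (ENSMUSG00000093354.1) at chr9:41581926-41582002. Both are in introns of the noncoding genes 3110039I08Rik and Gm49317, and Mir125b-1 also lies in an exon of the short transcript Gm28119. Mir99b (ENSMUSG00000065396.1) is at chr17:17830188-17830257 and Mir125a (ENSMUSG00000065479.1) at chr17:17830812-17830879, in an intron of the protein-coding gene Spaca6. Mir125a also overlaps an exon of 1 further Spaca6 transcript, which is noncoding. The chromosome 17 locus was the compact one, as its miR-99/100 and miR-125 hairpins were 554 bases apart, against 47272 on chromosome 16 and 50421 on chromosome 9. On the minus strand, Gm48742 has an exon over Mir100 and Gm11146 an intron over Mir99a, and all 6 members had 0 counts on the strand opposite to them. Levels of the host transcripts were not analysed here, because the tables hold miRNA genes only.

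**Figure D1:**
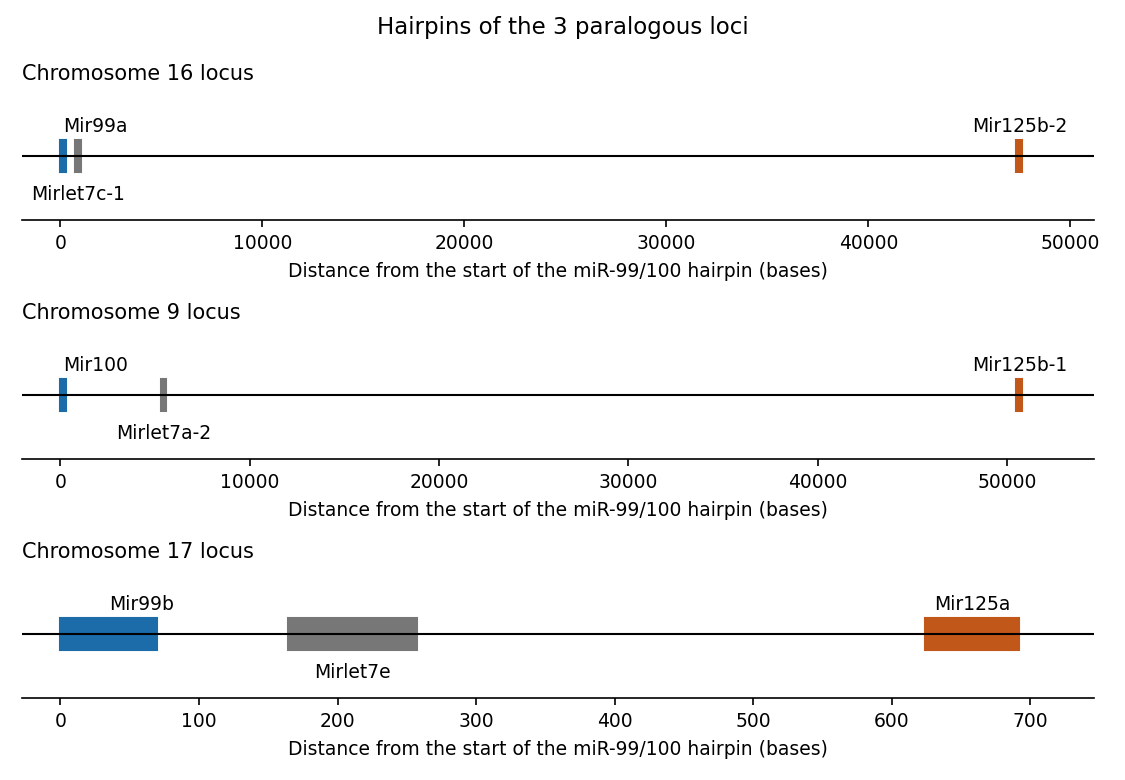
Positions of the hairpins of the 3 loci, as distance in bases from the start of the miR-99/100 hairpin, with miR-99/100 in blue, let-7 in grey and miR-125 in orange. Hairpins of the upper panels are drawn wider than to scale to be visible; the axes span about 50 kilobases on chromosomes 16 and 9 and under 1 kilobase on chromosome 17.

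The depth was 2764276 counts assigned to miRNA genes in replicate 1 and 3946444 in replicate 2, on the strand of the gene. Values are counts per 1000000 assigned counts (CPM), and intervals are exact Clopper-Pearson 95% intervals, which cover counting error only. They take reads as independent, although copies made by amplification were not marked. The tissue label was checked against markers. miRNAs of the Hox clusters, which mark hindbrain and spinal levels, had 44608 CPM in replicate 1 and 42409 in replicate 2. Of these, 4 of 6 were detected, that is with at least 10 counts in both libraries. Their sum came mostly from Mir10a (26347 and 25880 CPM) and Mir10b (15998 and 14531 CPM). Mir615 had 2237 and 1960 CPM and Mir196b 25.0 and 36.2 CPM, while Mir196a-1 and Mir196a-2 were not detected. Neural miRNAs had 6033 and 6471 CPM with 8 of 12 detected, although most of them are multi-copy or, like Mir9-1, have no row. Markers of other tissue cells were present as well, such as Mir126a of endothelium (25987 and 23442 CPM), while Mir122 of liver had 12.3 and 9.88 CPM.

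Of the reads placed at a single position on the strand of a miRNA gene, the miR-99/100 family made up over 20% and the miR-125 family under 1%. Together the 6 members held 22.3% of the counts in replicate 1 (22.2% to 22.3%) and 23.2% in replicate 2 (23.1% to 23.2%). The miR-99/100 members held 21.4% and 22.4% (mean 21.9% ± 0.731, SD, n = 2), and the miR-125 members 0.917% and 0.758% (0.837% ± 0.112). As a share of all reads, of which 32.7% and 33.4% matched several positions and were assigned to no gene, the means were 10.1% for miR-99/100 and 0.386% for miR-125. In these counts the families were far apart in both libraries, with 23.3 counts of miR-99/100 for each count of miR-125 in replicate 1 and 29.6 in replicate 2. The miR-125 counts lack full miR-125b-5p reads, so the shares and this ratio do not compare whole families.

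Mir99a, the chromosome 16 member of its family, had 360685 counts (130481 CPM) in replicate 1 and 548845 counts (139073 CPM) in replicate 2. It ranked first of all miRNA genes in each library. Mir100, which differs from it by 1 base in the 5p arm, had 144416 counts (52244 CPM) and 228019 counts (57778 CPM) and had rank 3 in each. Mir99b, the most divergent of the 3 in sequence, had 85649 counts (30984 CPM) and 107334 counts (27198 CPM), rank 6 in each. The 3 levels did not overlap between genes. Mir99a had 2.50 times the counts of Mir100 in replicate 1 and 2.41 times in replicate 2, and Mir100 exceeded Mir99b by 1.69-fold and 2.12-fold. Within the family, Mir99a gave 61.6% ± 0.719 (n = 2) of the counts, Mir100 25.1% ± 0.949 and Mir99b 13.3% ± 1.67. Reads ending before position 16 would fit both miR-99a-5p and miR-100-5p. As only reads placed at a single position are counted, such reads are in neither count. Whether reads with a misread base at position 16 were placed at the wrong gene was not tested.

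Mir125a, the single-copy member of the miR-125 family, had 16091 counts (5821 CPM) in replicate 1 and 17134 counts (4342 CPM) in replicate 2. Mir125b-1 had 5942 counts (2150 CPM) and 7878 counts (1996 CPM), and Mir125b-2 had 3308 counts (1197 CPM) and 4910 counts (1244 CPM). These levels did not overlap either, and all 6 members kept 1 order in both libraries, from Mir99a down to Mir125b-2. Mir125a exceeded Mir125b-1 by 2.71-fold and 2.17-fold and Mir125b-2 by 4.86-fold and 3.49-fold. It also exceeded the sum of both miR-125b hairpins, by 1.74-fold (1.70 to 1.78) in replicate 1 and 1.34-fold (1.31 to 1.37) in replicate 2. Full miR-125b-5p reads are missing from that sum, so miR-125a is not ranked here against total miR-125b. Mir125b-1 exceeded Mir125b-2 by 1.80-fold and 1.60-fold.

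**Figure D2:**
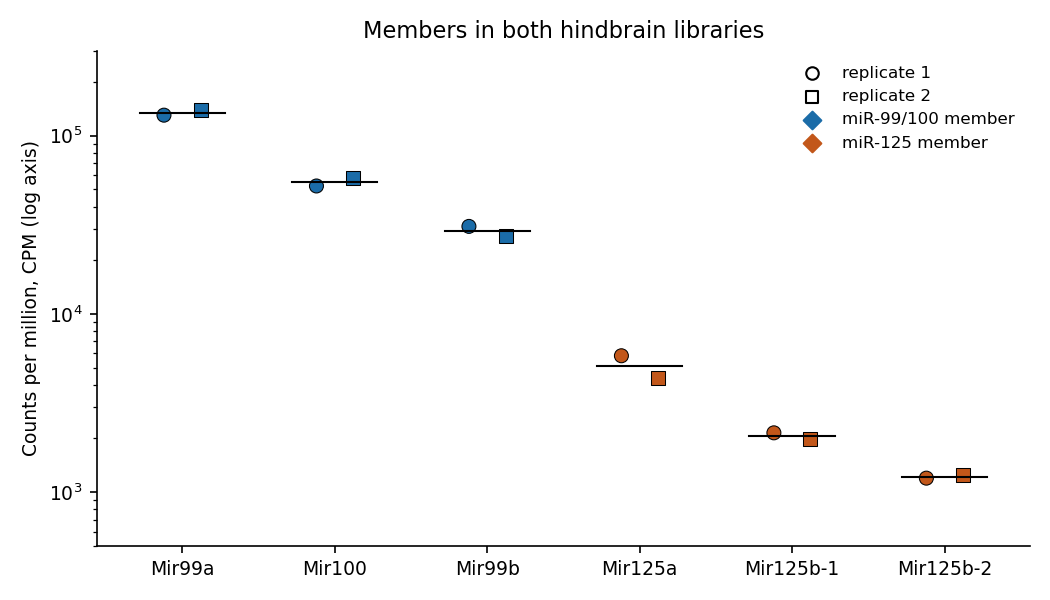
CPM on a log axis of each member in replicate 1 (circles) and replicate 2 (squares), with the mean of both libraries as a line. The miR-99/100 members (blue) lie between 27198 and 139073 CPM, all above the miR-125 members (orange), which lie between 1197 and 5821 CPM.

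All 6 members were detected and stood above the median of the 371 detected genes, which was 183 CPM. By mean CPM, Mir125a ranked 47, Mir125b-1 ranked 75 and Mir125b-2 ranked 98. Mir99a stood apart from the next gene, Mir335 (55394 and 62636 CPM). Mir100 lay between Mir335 and Mir17 (48251 and 53339 CPM) in each library, though its range over the libraries overlapped with that of each. Mir99b lay between Mir130a (32860 and 32101 CPM) and its relative Mir10a (26347 and 25880 CPM), and these ranges did not overlap with its own. The nearest genes to Mir125a were Mir135b (5300 and 4904 CPM) and Mir92-1 (5556 and 4209 CPM), to Mir125b-1 they were Mir615 (2237 and 1960 CPM) and Mir106a (1939 and 2004 CPM), and to Mir125b-2 Mir188 (1153 and 1314 CPM) and Mir674 (1237 and 1204 CPM). The ranges of the miR-125 members overlapped with those of their neighbours, so their ranks are not resolved by these libraries.

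**Figure D3:**
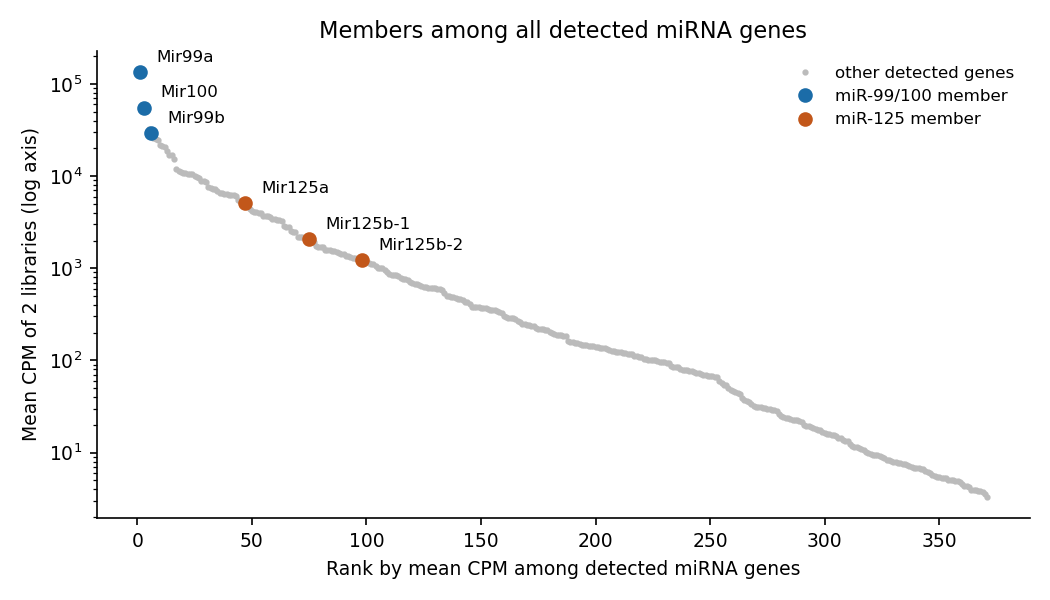
Mean CPM on a log axis of the 371 detected miRNA genes against their rank. The miR-99/100 members (blue) are at ranks 1, 3 and 6, and the miR-125 members (orange) at ranks 47, 75 and 98.

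Within each locus the miR-99/100 hairpin outnumbered the miR-125 hairpin, and the ratio differed widely between the loci. On chromosome 16 the ratio of Mir99a to Mir125b-2 was 109 in replicate 1 (105 to 113) and 112 in replicate 2 (109 to 115). On chromosome 9 the ratio of Mir100 to Mir125b-1 was 24.3 (23.7 to 24.9) and 28.9 (28.3 to 29.6). On chromosome 17, where both hairpins are single-copy, the ratio of Mir99b to Mir125a was 5.32 (5.23 to 5.41) and 6.26 (6.16 to 6.37). The ratios of the loci did not overlap, and they were compared without a test, since an exact sign-flip test over 2 libraries cannot go below p = 0.5. Both loci with the larger ratios have a multi-copy hairpin in the denominator, and the part of the missing miR-125b-5p reads in these ratios was not tested. In all, the 4 single-copy members had 65.6 times the counts of the 2 multi-copy members in replicate 1 and 70.5 times in replicate 2.

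**Figure D4:**
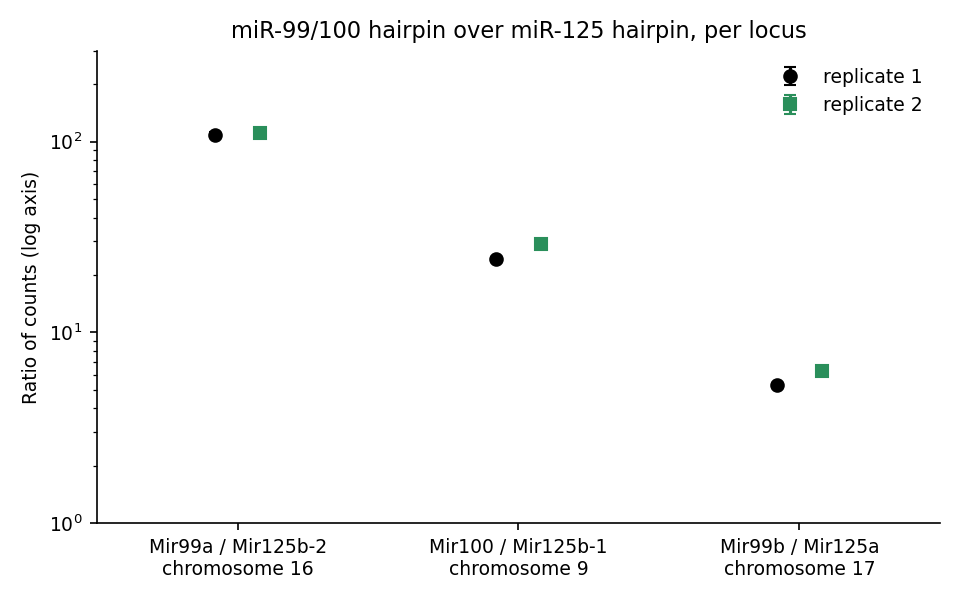
Ratio of the counts of the miR-99/100 hairpin to those of the miR-125 hairpin at each locus, on a log axis, in replicate 1 (black circles) and replicate 2 (green squares), with exact 95% intervals that are about the size of the points. The ratio is lowest, at 5.32 and 6.26, at the chromosome 17 locus, whose hairpins are both single-copy.

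The let-7 hairpins of the same loci also include single-copy and multi-copy ones. Mirlet7c-1 on chromosome 16 had 168 and 118 CPM and Mirlet7a-2 on chromosome 9 had 137 and 100.1 CPM, and the 5p arms of both stand in 2 hairpins. Mirlet7e on chromosome 17 is single-copy but has no row in the tables. Its reads appear as counts on the strand opposite to Gm25927, an annotated miRNA gene over the same bases, at 5177 and 4170 CPM. Of the 9 hairpins of the 3 loci, the 5 single-copy ones had at least 5177 CPM in replicate 1 and 4170 in replicate 2, and the 4 multi-copy ones at most 2150 and 1996. Counts of the multi-copy hairpins leave out full reads of their shared 5p arms, so this split does not compare total levels. Within the chromosome 17 locus Mirlet7e was close to Mir125a, at 0.889 times its counts (0.870 to 0.910) in replicate 1 and 0.961 times (0.940 to 0.981) in replicate 2, and Mir99b exceeded it by 5.98-fold and 6.52-fold.

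For all detected genes with a matching RefSeq arm, copies were counted from the 5p arm or the only mature arm. A gene that shares only its other arm therefore counts as single-copy here. By this definition, 278 single-copy genes had a median of 207 CPM and 38 multi-copy genes a median of 165 CPM. Only detected genes enter these medians. Multi-copy genes left with too few counts to be detected, because reads of a shared arm are set apart, would be missing from them. The medians therefore do not measure what copy number does to the counts. Under the same definition, the maximum was 134777 CPM for single-copy genes (Mir99a) and 4100 CPM for multi-copy genes (Mir219a-2). Mir125b-1 was number 5 of the multi-copy genes so defined. The reads set apart as matching several positions came to 1947238 in replicate 1 and 2890679 in replicate 2, or 32.7% and 33.4% of all reads. Mir125b-1 and Mir125b-2 together had 9250 and 12788 counts. The tables do not say which sequences the set-apart reads have.

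Among other miRNAs with a member's seed, Mir351, an X-linked relative of miR-125, had 3688 and 3689 CPM, below Mir125a and above Mir125b-1 in each library. Its 5p arm has the miR-125 seed and differs from miR-125a-5p at 14 of 24 positions, all after the seed.
miR-351-5p: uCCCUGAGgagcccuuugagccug
Mir6367 and Mir6394 carry the same seed and had 0 counts in both libraries, and a floor of 3 counts per library corresponds to 1.09 CPM in replicate 1 and 0.760 in replicate 2. No other gene of the RefSeq table has the miR-99/100 seed. miR-10a-5p, from a Hox cluster, has a different seed but shares the run GUAGAUCCGAA of 11 bases with miR-100-5p, shifted by 1 base. In these libraries Mir10a (26347 and 25880 CPM) and Mir10b (15998 and 14531 CPM) were each below Mir99b.

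Between the libraries all members differed by less than 2-fold, and the direction varied among them. On chromosome 17, Mir99b was 1.14-fold lower and Mir125a 1.34-fold lower in replicate 2, with log2 differences of -0.19 and -0.42, and Mirlet7e was 1.24-fold lower. The let-7 hairpins of the other loci were lower by more, Mirlet7c-1 on chromosome 16 by 1.42-fold and Mirlet7a-2 on chromosome 9 by 1.37-fold, so lower values in replicate 2 were not particular to chromosome 17. Mir99a was 1.07-fold higher and Mir100 1.11-fold higher in replicate 2. The miR-125b hairpins differed by less, with log2 differences of -0.11 for Mir125b-1 and 0.06 for Mir125b-2. The share of the chromosome 17 members was 3.68% of counts in replicate 1 and 3.15% in replicate 2, while those of the chromosome 16 and 9 members were 13.2% and 5.44% in replicate 1 and 14.0% and 5.98% in replicate 2. The directions of the 6 members and of Mirlet7e were the same under both other scalings of the libraries. Of the 6 listed skeletal muscle miRNAs, 5 have a row and 2 were detected, while Mir133a-1 and Mir1a-1 were at 0. Those with a row summed to 152 CPM in replicate 1 and 593 in replicate 2, mostly from Mir206 (146 and 579 CPM). Their part in these differences was not tested.

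Each gene was compared between the libraries with an exact binomial test, two-sided and adjusted by Benjamini-Hochberg over 393 genes. With thresholds of 0.05 on the adjusted p and 2-fold on the difference, 0 of 6 members were called, against 14 of all genes tested (3.56%). Without a minimum fold 5 of 6 members were called, 2 higher and 3 lower in replicate 2, against 203 of 393 genes (51.7%), and the same 5 had an unadjusted p under 0.05. The adjusted exact p was 7.11e-155 for Mir125a, 5.00e-05 for Mir125b-1 and 0.139 for Mir125b-2. These p-values compare the reads of 2 libraries, in which a 1.07-fold difference of Mir99a passes (adjusted exact p = 6.87e-194), and they say nothing on conditions. The median absolute log2 difference was 0.13 over the members and 0.24 over all genes tested. Most genes tested had fewer counts than any member, and the medians were not matched for level. They therefore do not show that the members differed less than other genes of similar level. The coefficient of variation of the CPM between the libraries ran from 2.75% for Mir125b-2 to 20.6% for Mir125a. The common dispersion of edgeR over all genes tested corresponds to 17.4%. That measure leaves out counting error and pools all genes, so it is not the same quantity as the values of single members. In bulk tissue, fewer cells of a type and less RNA per cell cannot be told apart in any of these values.

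**Figure D5:**
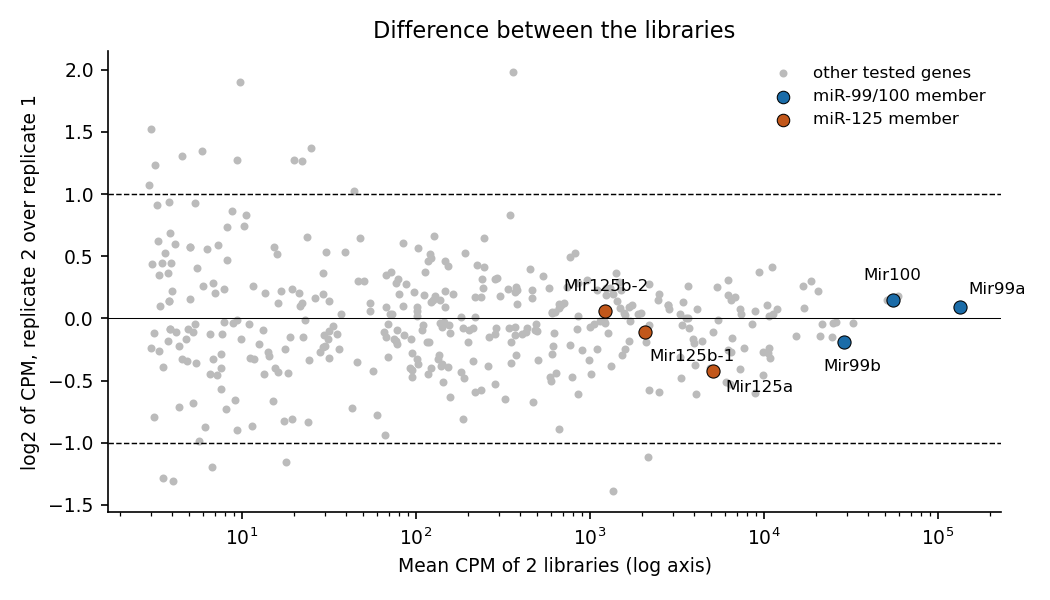
log2 of the CPM in replicate 2 over replicate 1, with 0.5 added to each count, against mean CPM on a log axis for the 393 genes tested, with dashed lines at 2-fold. All members (blue and orange) lie inside the lines, and Mir125a is the farthest from 0 at -0.42.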

How the data were processed

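Per the labels and the text deposited with the tables, the authors made whole-number read counts per miRNA gene from 1 alignment per library to mm10 with GENCODE M4; aligner and trimming: not given in the sources used here. Counts stand in columns for both strands, the gene's strand and the opposite strand, as read from its layout. The gene's strand was used, and the opposite strand held 67385 and 94907 counts. Rows naming no gene were left out of totals: in replicates 1 and 2, 15.7% and 16.2% of all reads were unmapped, 32.7% and 33.4% matched several positions, and 5.12% and 4.81% lay outside genes on that strand.

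From the counts, CPM, shares, ratios with exact Clopper-Pearson intervals, and a two-sided exact binomial test between the libraries were computed, the latter for the 393 genes that averaged 10 or more counts, with 0.5 added for folds. With 1 group there was no contrast between groups to test. Gene IDs were matched without version to GENCODE M21 (1894 of 1973). Mature sequences are from RefSeq (GRCm38.p6). A gene was multi-copy when a 5p or only mature arm stands in hairpins of separate loci. edgeR 4.0.16 gave the dispersion and TMM factors and DESeq2 1.42.0 size factors, in R 4.3.3; the rest used Python 3.11.15, SciPy 1.17.1, pandas 2.3.3 and matplotlib 3.10.9. The test was tested on simulated counts with counting error only, which does not cover the further spread between these libraries.

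Members and lists were chosen with earlier results of these data known. Named genes are the members, let-7 genes of the loci, genes with a member's 5p seed, Mir10a and Mir10b, the genes ranked next to each member, the hosts, and marker miRNAs; Mir219a-2 was named after its value was seen. The marker lists were neural, Hox, endothelium (Mir126a), smooth muscle (8348 and 10834 CPM), erythroid (298 and 355 CPM), leukocyte (501 and 420 CPM), skeletal muscle and liver (Mir122). Alternatives covered the strand, the denominator, the scaling, count minimums, fold, pseudocount and leaving out each library.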

Additional observations from a re-analysis of the deposited data

Results flagged for a closer look

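Reads at Mirlet7e, the let-7 gene between Mir99b and Mir125a, are outside the own-strand counts used above. The tables count them on the strand opposite to Gm25927, where they came to 14312 counts (5177 CPM) in replicate 1 and 16458 counts (4170 CPM) in replicate 2, above the 3 counts taken as the floor of a library. Gm25927 had 0 counts on its own strand.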

How the results depend on the processing

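Counting both strands together moved no share, ratio or CPM of a member by more than 1 SD. All 6 members had 0 counts on the opposite strand, so their ratios could not change. Shares and CPM changed only through the total. Scaling by edgeR TMM and DESeq2, run on the mean CPM of members over both libraries, also moved none by more than 1 SD. Both scalings raise 1 library and lower the other, so this mean could hardly move and is no test of the scaling. Ratios of summed counts, run on ratios, moved none by more than 1 SD either. Leaving out 1 of 2 libraries gives the value of the other one and is no test of stability. Without each replicate in turn, the ratio at the locus ran from 109 to 112 on chromosome 16, from 24.3 to 28.9 on chromosome 9 and from 5.32 to 6.26 on chromosome 17. With all reads as denominator, the share was 10.5% for the 6 members, 10.1% for miR-99/100 and 0.386% for miR-125. With Mir99a left out it was 10.7%, 9.72% and 0.967%. For single members, these 2 denominators also moved 10 CPM values by more than 1 SD. The number of genes called was 4 with a mean of at least 100 counts, 39 at 1.5-fold and 203 without a minimum fold, where 5 members were called against 0; other settings left both counts within 1.5 times. The adjusted p of Mir125b-2 passed 0.05 under edgeR TMM (0.0136) and DESeq2 (0.00458) scaling, without reaching 2-fold. With a minimum of 100 counts per library all 6 members were still detected, and what the reads that match several positions would add to the miR-125b values is not in the tables.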
